A study of Mus musculus with 6 samples.

Results

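The genes described here are 10 antiviral effectors that interferon is known to induce: Rsad2, Cmpk2, Mx1, Mx2, Bst2, Ifi44, Rtp4, Ifi35, Xaf1 and Ifi27. They were selected on measured values of the comparison reported below, so that their levels and fold changes are a description and carry no test. They are 10 of the 54886 genes listed in the files. Of these 10 genes, 9 had a mean FPKM of at least 1 over all 6 libraries and were among the 11884 genes fitted, while Mx1 lay under this limit. FPKM is the number of fragments assigned to a gene, divided by the length of its exons and by a scaling factor of the library. It thus compares levels between genes per length.

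RNA was sequenced from GC-2spd cells, an immortalized mouse line derived from spermatocytes, with BALB/c as its strain background. The PM_0 group (control, 3 libraries) was kept in normal culture medium, to which the study's methods also name an addition of PBS. The PM_100 group (3 libraries) received PM2.5, a fine urban particulate reference material, at 100 μg/mL for 48 h. The labels do not say that the 3 replicates of a group were separate cultures, so any p-value measures only the spread between these libraries, and a single cell line stands for the germ cells. In bulk RNA, fewer expressing cells and less RNA per cell cannot be told apart.

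Interferons bind receptors at the cell surface and act through the kinases JAK1 and TYK2 on a complex that contains STAT2 and IRF9 and binds a repeated GAAA-type element, the ISRE, upstream of its target genes. The products of these genes block different steps of viral growth, from entry and genome copying to release. Many of them are also transcribed at a low level without infection, and this level depends on the amounts of factors such as STAT2, IRF9 and IRF7. The aryl hydrocarbon receptor, which responds to hydrocarbons carried on particles, binds a different element whose core is called the DRE core.

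Control replicate 2 stood apart from the other libraries. Mitochondrial genes held 14.5% of its recovered reads, against 1.65% and 1.75% in control replicates 1 and 3 and between 1.70% and 1.95% in the PM_100 libraries. Pearson's r of log2(FPKM + 1) across the 11884 genes, which are not independent replicates, was 0.742 and 0.745 between it and the other controls and 0.992 between control replicates 1 and 3. Among the PM_100 libraries, r was 0.991 between replicates 1 and 2, while replicate 3 reached 0.950 and 0.958 with these. PM_100 replicate 3 was closer to control replicates 1 and 3, with an r of 0.972 to each. Fold changes from the fits and calls are therefore given with and without control replicate 2, and members' values without PM_100 replicate 3 are given where the group is summarized. The recovered depth lay between 16209342 and 18003187 reads per library, and a level of 0 reads allows up to 3 reads at this depth.

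The labelled cell type was checked against marker genes. Of 14 spermatocyte markers, 13 had a mean FPKM under 1, and Spo11, Hormad1, Dazl, Piwil1 and Pgk2 had 0 reads in every library. Only Hspa2, a testis-enriched heat shock gene that other cells also use, passed the limit, with an FPKM between 2.51 and 5.52. Sycp3 reached an FPKM of 2.56 in control replicate 2 (42 reads) and at most 0.438 elsewhere, and 52.2% of its exon bases are shared with Chpt1, so its value is uncertain. The other 12 spermatocyte markers stayed under an FPKM of 0.129 in every library, while 6 of 7 fibroblast and peritubular markers passed, led by Col1a1 with an FPKM between 193 and 452. The summed FPKM of this fibroblast list was 927, 1458 and 948 in control replicates 1, 2 and 3 and 934, 927 and 721 in PM_100 replicates 1, 2 and 3. The line is called by its name, GC-2spd, below.

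Cells that would bring their own interferon response were looked for in the same way. The leukocyte markers Ptprc, Adgre1 and Itgam had 0 reads in every library. The summed FPKM of the 7 macrophage and leukocyte markers ran from 6.78 to 8.75 in 5 libraries and reached 27.8 in control replicate 2, with Cd14 as the gene of the highest mean. Cd68 made the larger step there, with an FPKM of 15.5 against 1.03 and 0.750 in control replicates 1 and 3, beside 12.3 against 6.65 and 5.64 for Cd14. Their part in the values of control replicate 2 was not tested. None of the 4 endothelial markers, 2 of 7 Sertoli cell markers (Gata4 and Clu) and 1 of 6 Leydig cell markers (Star) passed the limit.

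Promoters of 6 of the 10 genes were in the RefSeq table (GRCm38.p6, 250 bases before to 50 bases after the start): Rsad2, Cmpk2, Bst2, Ifi44, Ifi35 and Xaf1. Rtp4, Mx1, Mx2 and Ifi27 had no entry. Because most of these genes moved in the same direction, 3 motifs were searched on both strands: the ISRE-type repeat GAAANNGAA, the interferon element GAS as TTCNNNGAA, and the DRE core GCGTG. The ISRE-type repeat was found in 3 of the 6 promoters (50%) and in 2812 of all 32851 promoters of the table (8.56%). In lists described below, its share was 48.7% for other interferon-stimulated genes, 40% for interferon genes and 37.5% for nucleic acid sensing genes. It was 30.8% for relatives and partners, 13.3% for receptors and JAK-STAT and 9.09% for interferon regulatory factors. GAS was found in 2 of the 6 and in 8.30% of all promoters, and the DRE core in 3 of the 6 and in 32.4% of all promoters. Shown here, 5′ to 3′ from base -150 to base 30 around the start, are the promoters of the neighbours Rsad2 and Cmpk2 and those of Bst2 and Ifi44, with every match in capitals.
Rsad2 (chr12:26456423-26456602, minus strand): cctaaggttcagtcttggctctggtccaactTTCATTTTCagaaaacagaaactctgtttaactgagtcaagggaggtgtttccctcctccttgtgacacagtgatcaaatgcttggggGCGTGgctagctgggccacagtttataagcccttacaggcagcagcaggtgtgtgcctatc
Cmpk2 (chr12:26469065-26469244, plus strand): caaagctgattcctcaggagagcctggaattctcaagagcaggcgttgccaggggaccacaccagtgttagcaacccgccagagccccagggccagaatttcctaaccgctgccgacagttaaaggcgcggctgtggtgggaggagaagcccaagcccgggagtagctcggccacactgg
Bst2 (chr8:71537443-71537622, minus strand): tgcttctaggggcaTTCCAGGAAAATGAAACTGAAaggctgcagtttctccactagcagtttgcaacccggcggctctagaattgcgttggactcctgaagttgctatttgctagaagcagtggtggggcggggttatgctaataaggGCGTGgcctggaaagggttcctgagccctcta
Ifi44 (chr3:151749881-151750060, minus strand): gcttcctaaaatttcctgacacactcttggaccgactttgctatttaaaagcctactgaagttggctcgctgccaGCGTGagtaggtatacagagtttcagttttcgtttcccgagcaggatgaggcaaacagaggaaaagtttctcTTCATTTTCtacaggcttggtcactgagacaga
The Rsad2 promoter held the reverse form TTCATTTTC of the ISRE-type repeat from base -119 to -111 and a DRE core from -31 to -27. In Bst2, GAAAATGAA from -130 to -122 and GAAACTGAA from -124 to -116 overlapped each other, and the former also overlapped the GAS match TTCCAGGAA from -136 to -128. In Ifi44, the ISRE-type match lay across the start, from base -3 to 6, and the DRE core from -75 to -71. A DRE core also lay across the start of Bst2, from -2 to 3. Ifi35 held a GAS match, TTCACAGAA, from base 8 to 16. Cmpk2 and Xaf1 held none of the 3 motifs in this window. A match is a description of the letters and neither a site nor a cause, and a window without a match says only that these letters are not in it.

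**Figure D1:**
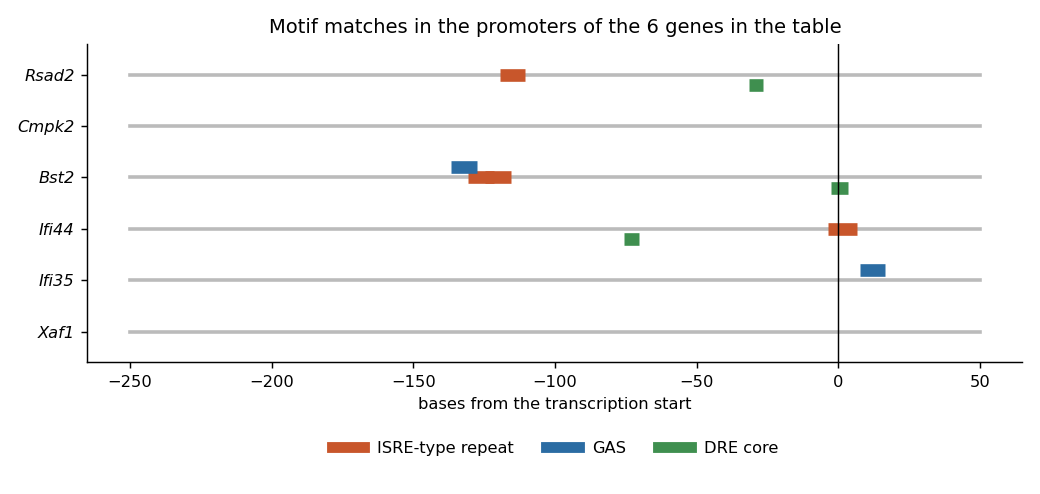
Positions of the 3 motifs in the 300-base promoters of the 6 genes with an entry. The x axis gives bases from the transcription start, each grey line is a promoter and each block is a match on either strand. Matches of the ISRE-type repeat lie in Rsad2, Bst2 (2 that overlap) and Ifi44, and Cmpk2 and Xaf1 have no block.

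Rsad2 and Cmpk2 act on nucleotides. Rsad2 encodes viperin, which turns CTP into a chain terminator of viral RNA synthesis, and Cmpk2 encodes a mitochondrial nucleotide kinase that feeds this step. The genes lie head to head on chromosome 12 of GRCm38, Rsad2 at chr12:26442746-26456452 on the minus strand and Cmpk2 at chr12:26469204-26479837 on the plus strand, 12751 bases apart with 0 annotated genes between them. The FPKM of Rsad2 was 8.22, 2.13 and 6.46 in control replicates 1, 2 and 3 and 1.24, 1.25 and 1.48 in PM_100 replicates 1, 2 and 3. All PM_100 values lay under all control values, but control replicate 2 came close to them, with 120 reads against 661 and 505 in the other controls. The FPKM of Cmpk2 was 8.79, 4.09 and 7.11 in the controls and 1.16, 1.83 and 1.41 in the PM_100 libraries. Again control replicate 2 was the lowest control, and the groups did not overlap. Here and below, a gene's fold lower in PM_100 is the ratio of mean FPKM between the groups. The log2 fold change beside it is the difference of mean log2(FPKM + 1), so that neither value converts into the other. The mean FPKM of Rsad2 was 4.24-fold lower in the PM_100 group (log2 fold change -1.37, standard error 0.42), and 5.55-fold lower without control replicate 2 (-1.84, standard error 0.13). For Cmpk2 it was 4.55-fold lower (-1.59, standard error 0.29) and 5.43-fold lower without that library (-1.86, standard error 0.16).

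Mx1 and Mx2 encode dynamin-like GTPases that trap viral nucleoproteins, in the nucleus for mouse Mx1 and in the cytoplasm for mouse Mx2. Many inbred mouse strains carry Mx1 alleles that yield no working protein, and the annotation lists Mx2 as a polymorphic pseudogene. Both lie on chromosome 16, Mx1 at chr16:97447035-97462907 on the minus strand and Mx2 at chr16:97535308-97560900 on the plus strand, with 72400 bases between them. The FPKM of Mx2 was 4.95, 11.8 and 4.20 in control replicates 1, 2 and 3 and 0.573, 0.639 and 0.597 in the PM_100 libraries. Here control replicate 2 was the highest library, and every control lay above every PM_100 library. The mean was 11.6-fold lower in PM_100 (log2 fold change -2.20, standard error 0.36) and 7.59-fold lower without control replicate 2 (-1.80, standard error 0.11). Mx1 was represented by 18, 24 and 16 reads in the controls (FPKM 0.256, 0.489 and 0.234) and by 3, 5 and 1 reads in the PM_100 libraries (FPKM 0.0444, 0.0745 and 0.0146). These groups did not overlap either, at a level close to the floor of 3 reads. Summed over the groups, the ratio of control to PM_100 was 6.98, with an exact 95% interval of 3.43 to 16.0 that reflects nothing but the error of counting. As log2(FPKM + 1), the difference was -0.34, or -0.25 without control replicate 2, since the added 1 understates changes of low genes. Of the 31-base sequences of Mx1, 7.22% also occur in Mx2, and 7.96% of those of Mx2 occur in Mx1, so that part of the few Mx1 reads is uncertain.

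Bst2 encodes tetherin, a membrane protein that holds budding virus particles at the cell surface. It was the most abundant of the 10 genes per length (chr8:71534255-71537456, minus strand). Its FPKM was 295, 848 and 274 in control replicates 1, 2 and 3 and 160.2, 156 and 111 in PM_100 replicates 1, 2 and 3. Control replicate 2 stood 2.98-fold above the mean of the other controls, and all controls lay above the PM_100 libraries. The mean was 3.32-fold lower in PM_100 (log2 fold change -1.54, standard error 0.50), and the difference was smaller without control replicate 2 (-1.01, standard error 0.19).

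Ifi44 encodes a GTP-binding protein of the cytoplasm with antiviral and growth-slowing activity, and Rtp4 a chaperone of membrane receptors that also binds viral RNA. The FPKM of Ifi44 (chr3:151730922-151749960, minus strand) was 9.96, 8.80 and 7.16 in control replicates 1, 2 and 3 and 0.648, 0.625 and 0.650 in the PM_100 libraries, from 1133, 700 and 791 reads and from 71, 68 and 72 reads. Control replicate 2 lay between the other controls, and the lowest control was 11.0-fold above the highest PM_100 library. The FPKM of Rtp4 (chr16:23520291-23614222, plus strand) was 52.7, 68.3 and 47.5 in the controls and 10.5, 11.2 and 9.66 in the PM_100 libraries. Its groups were also far apart, by 4.25-fold between the lowest control and the highest PM_100 library. Ifi44 was 13.5-fold lower in PM_100 (log2 fold change -2.54, standard error 0.18) and 13.3-fold lower without control replicate 2 (-2.53, standard error 0.15). Rtp4 was 5.37-fold lower (-2.30, standard error 0.21) and 4.79-fold lower without that library (-2.16, standard error 0.11). Rtp4 shares 13.9% of its exon bases with the transcript Gm45338 on the same strand, which had 0 to 22 reads per library. It also overlaps the opposite-strand gene Masp1, with 0 exon bases in common.

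Ifi35 and Xaf1 are linked to signalling and cell death. Ifi35 encodes a leucine zipper protein that pairs with NMI, and Xaf1 a partner of the apoptosis inhibitor XIAP. The FPKM of Ifi35 (chr11:101448407-101458698, plus strand) was 28.2, 155 and 23.7 in control replicates 1, 2 and 3 and 17.3, 17.1 and 11.2 in the PM_100 libraries. Control replicate 2 was 5.97-fold above the mean of the other controls, the widest such gap among the 10 genes. The FPKM of Xaf1 (chr11:72301629-72313733, plus strand) was 20.2, 52.7 and 19.4 in the controls and 7.40, 7.42 and 7.89 in the PM_100 libraries. For both genes, all controls lay above all PM_100 libraries. Ifi35 was 4.53-fold lower in PM_100 (log2 fold change -1.60, standard error 0.73) but only 1.71-fold lower without control replicate 2 (-0.75, standard error 0.22). Xaf1 was 4.06-fold lower (-1.73, standard error 0.41) and 2.61-fold lower without it (-1.28, standard error 0.09). An antisense transcript, Gm11626, covers 16.8% of the exon bases of Ifi35. It had 0 to 15 reads per library, and since the counting is not stated to use strand, its reads and those of Ifi35 there cannot be told apart.

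Ifi27 encodes a small hydrophobic protein of mitochondrial and nuclear membranes and was the exception. Its FPKM (chr12:103434211-103440239, plus strand) was 96.7, 88.1 and 98.7 in control replicates 1, 2 and 3 and 86.2, 90.6 and 63.9 in PM_100 replicates 1, 2 and 3. The groups overlapped, since PM_100 replicate 2 lay above control replicate 2. The mean was 1.18-fold lower in PM_100 (log2 fold change -0.25, standard error 0.23) and 1.22-fold lower without control replicate 2 (-0.30, standard error 0.17). PM_100 replicate 3 was the lowest library for Ifi27, as it was for Bst2, Ifi35, Rtp4 and Mx1.

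**Figure D2:**
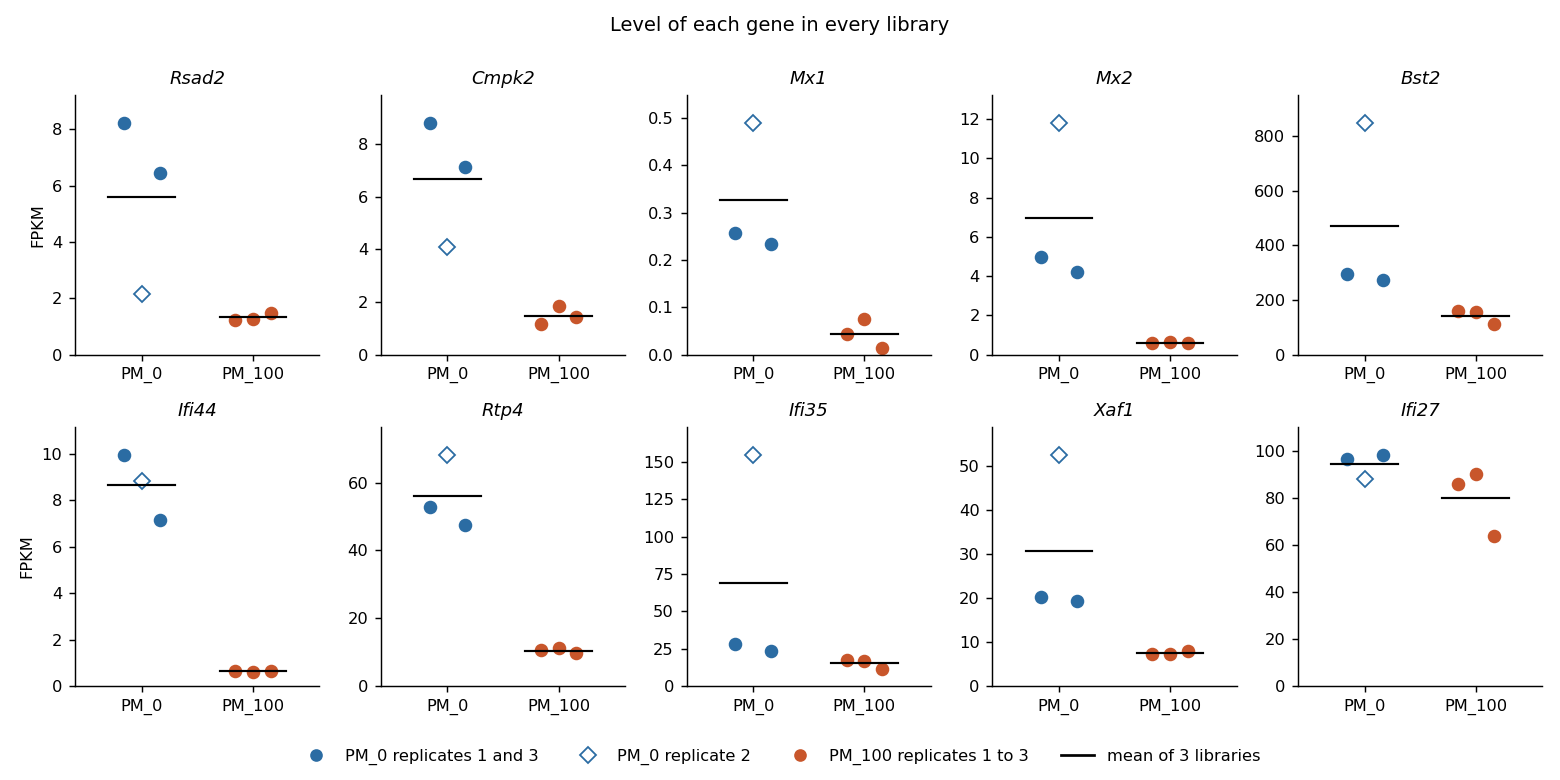
FPKM of each of the 10 genes (y axis, linear from 0, own scale per gene) in the control libraries (PM_0, blue) and the PM2.5 libraries (PM_100, orange), 1 point per library, with black bars for the mean of 3 libraries. The open diamond is control replicate 2, which is the highest control for Bst2 (848) and Ifi35 (155) and the lowest for Rsad2 (2.13) and Cmpk2 (4.09). Only for Ifi27 do the groups overlap.

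The 10 genes were ordered by mean FPKM in each group. In the PM_100 group Bst2 had the highest mean (142 ± 27.2, SD, n = 3), followed by Ifi27 (80.2 ± 14.3), Ifi35 (15.2 ± 3.49), Rtp4 (10.5 ± 0.767) and Xaf1 (7.57 ± 0.281). Cmpk2 (1.46 ± 0.339), Rsad2 (1.32 ± 0.137), Ifi44 (0.641 ± 0.0138), Mx2 (0.603 ± 0.0336) and Mx1 (0.0445 ± 0.0299) came after them. The ranges of Ifi35 and Rtp4, of Cmpk2 and Rsad2, and of Ifi44 and Mx2 overlapped. In the controls Bst2 (472 ± 326, SD, n = 3) and Ifi27 (94.5 ± 5.60) also came before the others by mean, with and without control replicate 2, although the ranges of Ifi27 and Ifi35 overlapped with it. Ifi35 (69.0 ± 74.5) lay above Rtp4 (56.2 ± 10.8) only through control replicate 2. Without that library Rtp4 had a mean of 50.1 and Ifi35 of 26.0, and their ranges did not overlap. Mx2 (6.98 ± 4.18) likewise lay above Cmpk2 (6.67 ± 2.38) and Rsad2 (5.60 ± 3.13) with all controls and below both without control replicate 2 (4.58 against 7.95 and 7.34). Ifi44 (8.64 ± 1.41 in the controls) was above Cmpk2 and Rsad2 by mean in both cases, with a range that overlapped those of both, and below both without overlap in the PM_100 group.

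Across all genes, limma on log2(FPKM + 1) called 11 of 11884 genes, 4 higher and 7 lower in PM_100, where a call needed a Benjamini-Hochberg adjusted p under 0.05 and a log2 fold change beyond 1 in either direction. Ifi44 and Rtp4 were 2 of the 7 lower genes, against a share of 0.0589% of all genes called lower (0.0337% were called higher). Without control replicate 2, 84 genes were called, 65 lower and 19 higher, which is 0.547% and 0.16% of all genes. Of the 10 genes, 6 were among the lower ones: Ifi44, Rtp4, Rsad2, Cmpk2, Mx2 and Xaf1. Bst2, Ifi35 and Ifi27 were not called in either fit, and Mx1 was not fitted. All 11 genes called with 6 libraries were also called without control replicate 2. When any other single library was left out, 0 genes were called in limma, with between 197 and 627 genes at an unadjusted p under 0.05 and 451 with all 6 libraries. Since this contrast chose the genes, nothing is read from their share of calls.

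The groups did not overlap for 9 of the 10 genes, all lower in PM_100. Among the 9 genes over the limit this held for 8, beside 6.85% of all genes tested that lay lower without overlap and 8.35% that lay higher. Without control replicate 2 it held for all 10, beside 19.6% lower and 17.7% higher of all genes. The median log2 fold change over the 10 genes, Mx1 included, was -1.60 (range -2.54 to -0.25), and -1.54 without control replicate 2 (range -2.53 to -0.25). Over all genes tested the medians were 0.02 and -0.01. Without PM_100 replicate 3 the median of the 10 genes was -1.50, with Ifi27 at -0.09, Bst2 at -1.37 and Ifi35 at -1.41. These values too describe genes selected on this contrast.

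**Figure D3:**
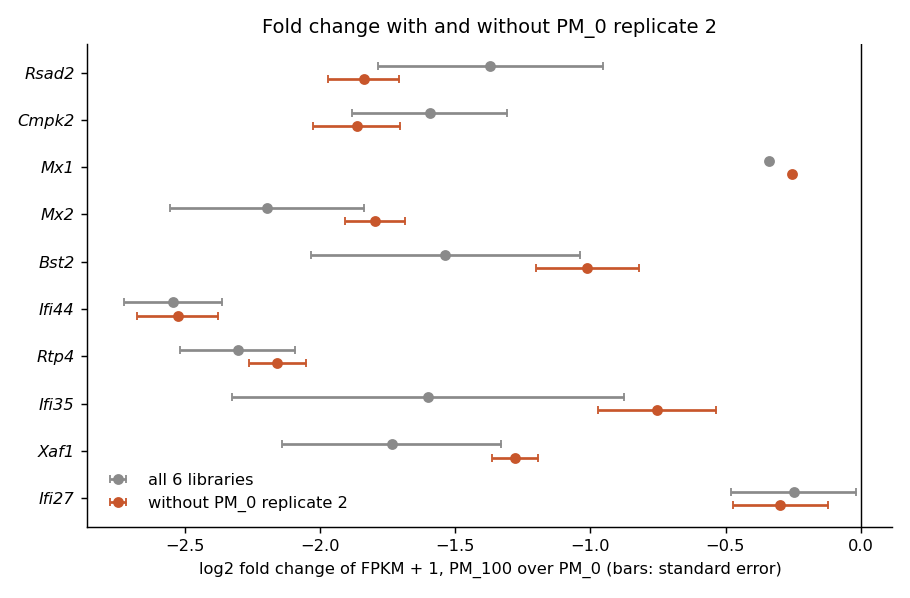
Log2 fold change of FPKM + 1 (x axis, PM_100 over PM_0) for each of the 10 genes, with all 6 libraries (grey) and without control replicate 2 (orange). Bars are standard errors from limma, and Mx1, which was under the limit, has none. Ifi44 stays at -2.54 and -2.53, while Ifi35 goes from -1.60 to -0.75.

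Control replicate 2 did not move the 10 genes in a common direction. It lay above both other controls for Rtp4, Bst2, Mx1, Mx2, Xaf1 and Ifi35, below both for Rsad2, Cmpk2 and Ifi27, and between them for Ifi44. The difference to the mean of the other controls on the log2(FPKM + 1) scale ran from -1.40 for Rsad2 to 2.54 for Ifi35. Other interferon-stimulated genes were split as well, with 16 of 36 above both and 20 below both, against 45.9% and 50.7% of all genes tested. Isg15, a ubiquitin-like modifier, had an FPKM of 361, 1944 and 302 in control replicates 1, 2 and 3, whereas the GTPase gene Irgm2 had 41.3, 3.91 and 33.5. The ribosomal protein gene Rpl27, the coding neighbour of Ifi35, had an FPKM of 217, 1359 and 219 in these libraries, so that the gap was not limited to interferon targets.

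**Figure D4:**
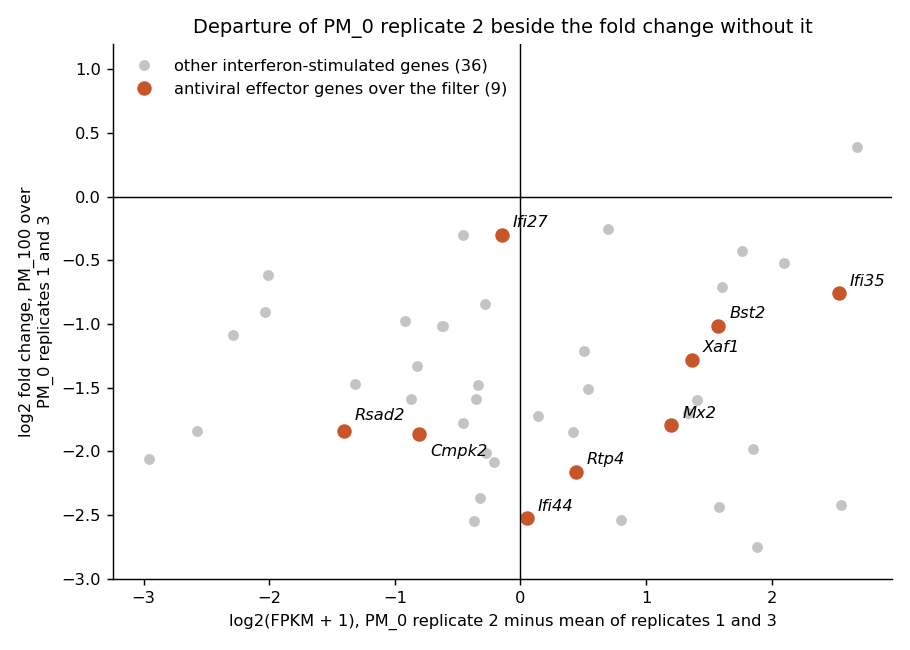
Difference between control replicate 2 and the mean of control replicates 1 and 3 (x axis, log2 of FPKM + 1) beside the log2 fold change of PM_100 over these controls (y axis), for 9 of the 10 genes (orange) and 36 other interferon-stimulated genes (grey) over the limit. Points lie on both sides of 0 on the x axis, the 9 genes from -1.40 (Rsad2) to 2.54 (Ifi35), and on the y axis Ifitm2 alone lies above 0 (0.39).

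The genes upstream were followed from ligand to factor. Of 10 interferon genes, 8 had 0 reads in every library, Ifna4 had 1 read in control replicate 1, and Ifnb1 had 0, 8 and 2 reads in the controls and 2, 0 and 0 reads in the PM_100 libraries. The Ifnb1 reads were few, with a ratio of control to PM_100 of 5.42 and an exact 95% interval from 1.15 to 50.8 for counting error only, and 8 of the 10 control reads came from control replicate 2. Receptor genes were expressed. The FPKM of Ifnar1 was 15.5, 15.1 and 15.2 in the controls and 13.8, 15.8 and 15.8 in the PM_100 libraries, and that of Ifnar2 was 6.07, 4.79 and 6.78 and then 7.03, 7.04 and 7.21. The groups overlapped for Ifnar1, while for Ifnar2 all PM_100 libraries lay above all controls, and neither gene was called in either fit.

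Of the 18 genes of the receptor and JAK-STAT list, 16 were tested, and 0 were called with all 6 libraries in limma. Without control replicate 2, Stat2, a signal transducer of the interferon response, was called lower. Its FPKM was 21.5, 141 and 16.3 in the controls and 7.35, 6.55 and 6.43 in the PM_100 libraries (log2 fold change -2.30, standard error 0.79, adjusted p = 0.875 from limma with all 6 libraries, and -1.35, standard error 0.15, adjusted p = 0.0349 without control replicate 2). The kinase genes Jak1 and Tyk2 were not called in either fit. The list's median log2 fold change was -0.05, and -0.13 without control replicate 2, with 10 and 11 of the 16 below 0.

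Among 9 interferon regulatory factors 6 were tested, with 0 called with all 6 libraries and 2 lower without control replicate 2, Irf7 and Irf9. Irf9, a DNA-binding partner of STAT2, had an FPKM of 18.0, 14.3 and 17.6 in the controls and 7.26, 8.48 and 7.89 in the PM_100 libraries (log2 fold change -0.99, standard error 0.19, adjusted p = 0.372 from limma with all 6 libraries, and -1.09, standard error 0.10, adjusted p = 0.0206 without control replicate 2). Irf7, which amplifies the response, had 31.0, 140.5 and 24.8 in the controls and 7.71, 8.39 and 5.69 in the PM_100 libraries (-2.58, standard error 0.66, adjusted p = 0.711, and -1.81, standard error 0.19, adjusted p = 0.0316, likewise). All 6 tested factors had a log2 fold change below 0 in both fits. Their medians were -0.72 and -0.34.

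Of 18 nucleic acid sensing genes, 14 were tested, 0 were called with 6 libraries and 4 were called lower without control replicate 2. These were Ddx58 (RIG-I), Ifih1 (MDA5) and Dhx58 (LGP2), the helicases that sense viral RNA, and Eif2ak2, the RNA-activated kinase PKR. The FPKM of Dhx58 was 24.4, 47.7 and 20.5 in the controls and 3.95, 4.69 and 5.29 in the PM_100 libraries (log2 fold change -2.41, standard error 0.34, adjusted p = 0.153 from limma with all 6 libraries, and -2.06, standard error 0.15, adjusted p = 0.0117 without control replicate 2). The adaptor genes Mavs and Tmem173 (STING) were not called in either fit. The list's medians were -0.61 with all 6 libraries and -0.78 without control replicate 2.

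Of 40 other interferon-stimulated genes, 36 were tested. With all 6 libraries 4 were called, each lower: Ifit3b, Usp18, Oasl2 and Iigp1. Without control replicate 2, 23 were called, again each lower. Besides those 4 they were Ifit1, Ifit3, Isg15, Oas1a, Oas2, Oas3, Gbp3, Gbp7, Igtp, Irgm1, Irgm2, Ifitm3, Trim30a, Parp9, Parp14, Dtx3l, Lgals3bp, Phf11d and Sp100. The list's median log2 fold change was -1.34, and -1.55 without control replicate 2, with 35 of 36 below 0 in both fits. Ifit3 had an FPKM of 28.7, 45.3 and 22.9 in the controls and 3.11, 3.81 and 3.84 in the PM_100 libraries. The RNA-binding gene Ifit2 differed from it, with 18.5, 13.0 and 18.0 against 12.9, 13.6 and 17.9. Ifitm2 was the gene above 0 without control replicate 2 (0.39, and -0.50 with it), and Ifi204 with all 6 libraries (0.06, and -0.61 without it). Neither was called. These lists were chosen with results of these libraries known, so their counts are no independent evidence of a direction. In the pathway lists together, 80 of 108 genes were tested, 4 were called lower with all 6 libraries and 31 without control replicate 2, and 0 were called higher in either fit.

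**Figure D5:**
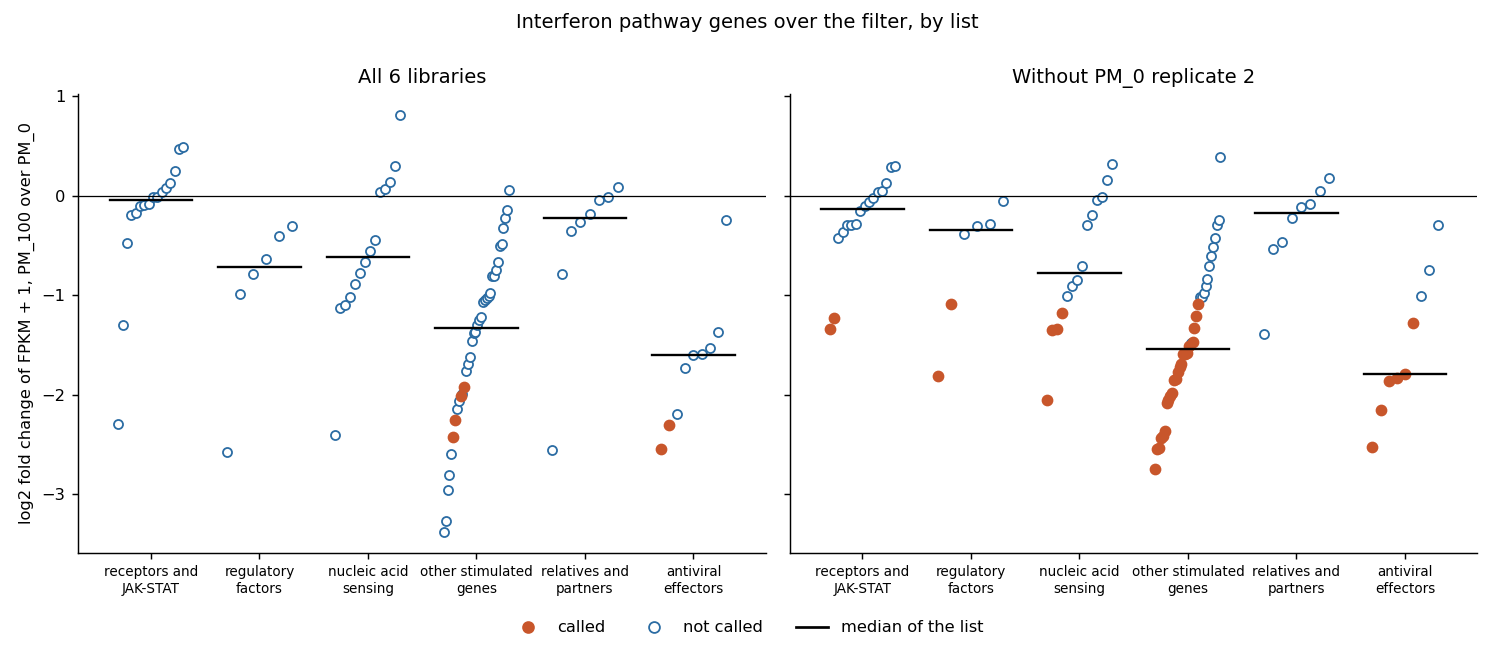
Log2 fold change of FPKM + 1 (y axis, PM_100 over PM_0) of the pathway genes over the limit, by list, with all 6 libraries (left) and without control replicate 2 (right). Each point is a gene, filled where it was called, and black lines are list medians. The median of the antiviral effectors is -1.60 on the left and -1.80 on the right (9 genes, Mx1 left out), beside -1.34 and -1.55 for other stimulated genes and -0.05 and -0.13 for receptors and JAK-STAT.

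Relatives and partners of the 10 genes gave 0 calls in limma in either fit, with 8 of 13 tested. The family members Ifi44l, Rtp1, Rtp2 and Rtp3 had 0 reads in every library, so that Ifi44 and Rtp4 were the measured genes of their families here. Ifi27l2a, 1928 bases from Ifi27 on the opposite strand, had an FPKM of 47.7, 550.0 and 47.0 in the controls and 22.6, 17.5 and 13.4 in the PM_100 libraries. Its groups did not overlap, unlike those of Ifi27, but it was not called (log2 fold change -2.56, standard error 0.98, adjusted p = 0.875 from limma with all 6 libraries, and -1.39, standard error 0.22, adjusted p = 0.0806 without control replicate 2). The housekeeping relative Cmpk1 had 37.0, 53.2 and 39.9 against 33.0, 35.7 and 37.4, and Xiap, the partner of Xaf1, had 20.4, 5.92 and 20.5 against 13.2, 14.3 and 16.4. Nmi, the partner of Ifi35, had 9.29, 14.2 and 6.98 against 4.39, 5.32 and 6.08, without overlap and without a call.

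Coding neighbours of the 10 genes gave mixed values, and several had about 0 reads and show no pattern either way. Besides Rsad2, Cmpk2 and Ifi27l2a, the PM_100 libraries lay under the controls without overlap for Sox11 and Fbxo39. Sox11, 854427 bases from Cmpk2, had an FPKM of 8.91, 9.77 and 9.62 in the controls and 5.78, 5.85 and 6.65 in the PM_100 libraries, and was not called in either fit (log2 fold change -0.56, and -0.53 without control replicate 2). Fbxo39, which starts 711 bases beyond the end of Xaf1 on the same strand (chr11:72314444-72319416), had 26, 23 and 29 reads in control replicates 1, 2 and 3 and 3, 3 and 6 reads in the PM_100 libraries. Its mean FPKM was under 1, so that it was not tested. The ratio of control to PM_100 reads, scaled as the FPKM are, was 7.04 (exact 95% interval 3.81 to 14.2, counting error only). Vat1, 47 bases from the end of Ifi35 on the opposite strand, had an FPKM of 65.0, 60.1 and 64.8 in the controls and 112, 106 and 90.8 in the PM_100 libraries, and was not called in either fit. Mvb12a beside Bst2 (11.0, 36.9 and 12.1 against 12.7, 12.2 and 9.82) and Ddx24 beside Ifi27 (13.0, 8.39 and 12.6 against 11.2, 11.3 and 11.4) were not called either.

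The genes most like the group were sought over the 6 libraries, by Pearson's r with the mean of the standardized log2(FPKM + 1) of the 9 genes over the limit. This mean was 0.743, 1.00 and 0.587 in the controls and -0.712, -0.625 and -0.993 in the PM_100 libraries, so that the difference between the groups carries most of any r. The 10 highest of 11875 genes were Tacc1, Ggt5, Ensa, Col6a1, Frmd5, Gper1, Htra3, Susd2, Tcf21 and Plau, with r from 0.998 to 0.989. None of them is in the pathway lists and none was called in either fit. The value r follows the shape and not the size of a change. Ensa had an FPKM of 30.9, 31.7 and 30.9 in the controls and 27.2, 28.0 and 26.8 in the PM_100 libraries, and Gper1, a membrane estrogen receptor gene, 2.46, 2.86 and 2.05 against 0.816, 0.622 and 0.480. In Tacc1 and the other 9 genes of this ranking, control replicate 2 was 1.01-fold to 1.28-fold of the mean of the other controls.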

How the data were processed

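The deposited FPKM values of 6 libraries were used. Per the processing notes, the authors aligned the reads with HISAT2 2.0.5 to build mm9 and counted them with featureCounts 1.5.0-p3. GENCODE M21 (GRCm38) supplied gene names, exon lengths and coordinates. With these lengths, reads were recovered from the FPKM, and 24209 of 25249 expressed genes with a length (95.9%) gave whole numbers in all 6 libraries, at a tolerance of 0.05. The recovered reads served for depth, shares and low counts.

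Genes whose FPKM averaged 1 or more were fitted on log2(FPKM + 1) with limma 3.58.1 and statmod 1.5.0 in R 4.3.3, with an intensity trend and robust variances, and p-values were adjusted by Benjamini-Hochberg over all genes fitted. A call needed an adjusted p under 0.05 and a log2 fold change beyond 1 in either direction. The fit was also tried on simulated data with known changes. No simulated library departed from its group, so this trial does not show how the fit behaves with such a library. Alternatives were another pseudocount, other filters and scalings, voom on recovered reads, a replicate block, and each library left out. The members and lists were chosen with earlier results of these data known. Genes named in the text are the members, genes of the lists, neighbours on the chromosome and the 10 genes most like the group. No pair of libraries was a duplicate, as chi-square over its degrees of freedom was 3.60 or more. Python 3.11.15, numpy 2.4.6, pandas 2.3.3, scipy 1.17.1 and matplotlib 3.10.9 were used for tables and figures.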

Additional observations from a re-analysis of the deposited data

How the results depend on the processing

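The calls with all 6 libraries depended on the processing, and the directions did not. All members with a value were lower in PM_100 in every setting run. Their median log2 fold change of -1.60 ranged from -1.90 without PM_0 replicate 3 to -1.49 with scaling to recovered total reads. Where alternatives were combined with leaving out PM_0 replicate 2, it ranged from -2.34 with voom to -1.01 at a mean FPKM of at least 5, which 5 members pass. The count of called genes, 11, became 0 without a filter (875 at an unadjusted p under 0.05), 0 at a mean FPKM of at least 5 (254), 0 with voom (449) and 6 with total reads, where the split was 3 higher and 3 lower instead of 4 and 7. Scaling to total reads put the median of all genes at 0.13, and voom at 0.16. Members called, 2, became 0 without a filter, 0 at a mean FPKM of at least 5 and 0 with voom. Pathway genes called, 4, became 0 without a filter, 0 at a mean FPKM of at least 5, 1 with total reads, 2 with nuclear reads and 0 with voom. Leaving out 1 library gave 0 to 84 called genes, 0 to 6 members and 0 to 31 pathway genes. The highest values came without PM_0 replicate 2, and 0 came without PM_0 replicate 1 or 3 or PM_100 replicate 1, 2 or 3. A replicate block gave 0 called genes (335 at an unadjusted p under 0.05), 0 members and 0 pathway genes. For pairing by number, r of the deviations was -0.285, 0.180 and 0.253 for replicates 1, 2 and 3 (mean 0.0495), and 2 libraries fitted best with their own number, so the libraries were not treated as pairs. Alternatives combined with leaving out PM_0 replicate 2 were added after the data had been seen. There, 84 called genes became 40 and 31 pathway genes became 14 without a filter, and 6 members became 2 at a mean FPKM of at least 5. Of 135 single member values, 127 moved by less than 1 SD between replicates, 8 by more (Ifi44, Cmpk2, Mx1 and Mx2 with a pseudocount of 0.1 or with voom) and 0 reversed. This SD is wide where PM_0 replicate 2 departs, so the 127 include Ifi35 (-1.60 to -0.75) and Bst2 (-1.54 to -1.01) without it. They also include Ifi27 without PM_100 replicate 3 (-0.25 to -0.09). The cause was not tested.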
